A study of Mus musculus with 6 samples.

Results

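Fc receptors and paired immunoglobulin-like receptors were followed in MN1-transformed mouse myeloid progenitors with and without the histone methyltransferase gene Dot1l. The set was defined by gene symbol, with earlier results of these data known. It took in the IgG receptor genes Fcgr1 to Fcgr4, the signalling chain gene Fcer1g, Cd22 and Cd33. It also took in every gene whose symbol starts with Fcrl, Trem, Siglec, Cd300, Lilr, Pilr, Pira, Pirb or Sirp. It held 41 of the 31626 genes in the tables, each on 1 row, and none was lost to a failed estimate. By known function 18 were listed as activating, 12 as inhibitory, 1 as an adaptor and 9 as having another or a mixed role, and Cd300d had no listed role.

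These receptors sit on myeloid and B cells and set how strongly a cell answers to antibody-coated or sialic acid-bearing targets. Most activating members have short tails and borrow an adaptor that carries an immunoreceptor tyrosine-based activation motif: the Fc receptor gamma chain, encoded by Fcer1g, or DAP12, encoded by Tyrobp. Receptors with an activation-like motif of their own were also listed as activating. Inhibitory members carry inhibitory tyrosine motifs in their own tails and recruit the phosphatases SHP-1 and SHIP-1, encoded by Ptpn6 and Inpp5d. Many loci hold both kinds with similar ligand-binding domains, which is why they are called paired receptors.

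RNA came from common myeloid progenitors of C57Bl/6 mice that carried floxed Dot1l and had been transformed with a retrovirus (MSCV) expressing the leukaemia oncogene MN1 together with GFP. In the 3 Dot1l-deleted libraries the cells had been transduced with Cre recombinase and are labelled Dot1l -/-, and in the 3 control libraries they are labelled flox/flox and had been transduced with a control. Both groups grew in M3234 medium with serum, IL3, IL6 and SCF and were sorted on day 7, and both carry MN1. No group had Cre with intact Dot1l, so an effect of Cre and one of Dot1l loss cannot be told apart. Whether replicates were separate cultures is not in the labels, and p-values then reflect only how far these libraries vary, which may be technical variation.

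Values are FPKM, which count fragments relative to gene length and library size, and 17310 to 18034 genes were above 0 in each library. Dot1l itself was at 8.24, 8.17 and 5.80 FPKM in the Dot1l-deleted libraries, against 20.2, 22.6 and 19.6 FPKM in controls. The third Dot1l-deleted library stood apart: the median log2 deviation of its genes from the 6-library mean was -0.366, against 0.0499 to 0.103 in the others, and 39.0% of its FPKM lay in its 10 highest rows, against 6.59% to 10.8% elsewhere. Genes with a mean of at least 1 FPKM over the 6 libraries, 11924 in all, were tested with limma on log2(FPKM + 1), a scale that understates the change of low genes, and called changed at an adjusted p under 0.05. The median log2 fold change (Dot1l-deleted minus control) of all tested genes was -0.16, and 0.0011 with median-of-ratios scaling, which is given below as the scaled value.

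Of the 41 receptor genes, 23 passed the filter; 18 of these rose after Dot1l deletion, 0 fell by limma and 5 did not pass; at an unadjusted p under 0.05 it was 19 higher and 1 lower. Among all tested genes 7.43% were called higher, 12.2% lower and 19.7% in either direction. Leaving out the third Dot1l-deleted library, or scaling by median of ratios, 20 of the 23 were called higher and 1, Fcer1g, lower. With that scaling 23.0% of all tested genes were called higher and 22.3% lower. Without that library 2069 of the 11924 tested genes were called higher and 2504 lower. Of the 23 genes, 12 reached a mean of 1 FPKM only in the Dot1l-deleted group, so their passing already required a difference. The other 11 reached it in both groups, and 7 of them rose. Nothing but limma was run as a test across genes. In bulk RNA a larger number of cells that carry a receptor and more RNA per cell cannot be told apart.

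**Figure D1:**
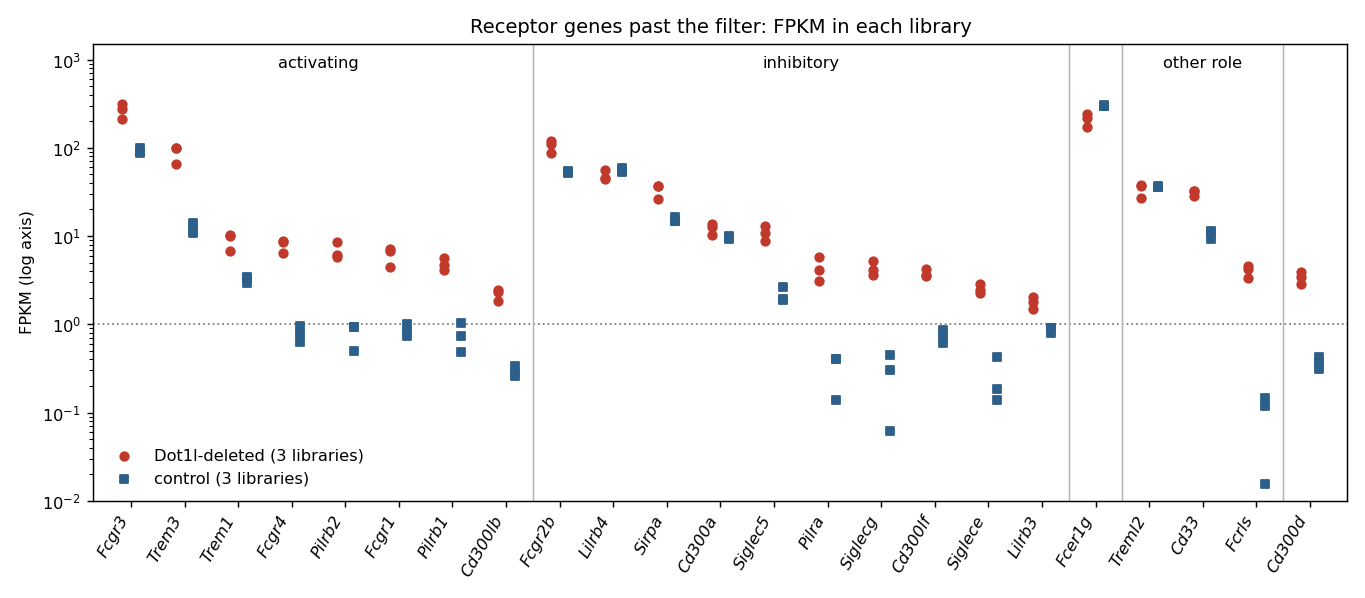
FPKM (log axis) of the 23 receptor genes past the filter in each of the 3 Dot1l-deleted libraries (circles) and 3 control libraries (squares), grouped by role, with a dotted line at 1 FPKM; the last column has no listed role. The groups overlap only for Lilrb4 and Treml2, and Fcer1g is the only one of the 23 that is lower in every Dot1l-deleted library.

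The classical IgG receptors rose, the activating ones and the inhibitory one alike. Fcgr3, the low-affinity activating receptor FcγRIII (ENSMUSG00000059498), was the highest receptor chain of the set in both groups, at 279, 309.9 and 213 FPKM in Dot1l-deleted libraries, against 99.7, 90.3 and 87.4 FPKM in controls. Every Dot1l-deleted library lay above every control, with a log2 fold change of 1.51 (SE 0.185, limma adjusted p = 0.000218). Its inhibitory partner Fcgr2b, the FcγRIIB gene (ENSMUSG00000026656), was at 109.7, 119.6 and 87.1 FPKM in Dot1l-deleted libraries, against 54.9, 51.2 and 53.5 FPKM in controls. Its log2 fold change was 0.96 (SE 0.169, limma adjusted p = 0.00244), and the groups did not overlap. Fcgr4, which binds IgG2a and IgG2b in mice, was at 8.74, 8.47 and 6.45 FPKM in Dot1l-deleted libraries, against 0.965, 0.767 and 0.633 FPKM in controls. This was a log2 fold change of 2.31 (SE 0.169, limma adjusted p = 6.108e-06). Fcgr1, the high-affinity receptor FcγRI, was at 6.80, 7.19 and 4.52 FPKM in Dot1l-deleted libraries, against 0.9998, 0.745 and 0.842 FPKM in controls, with a log2 fold change of 1.93 (SE 0.188, limma adjusted p = 4.321e-05). Fcgr3 and Fcgr2b have similar extracellular parts: 9.58% of the 50-base stretches of Fcgr3 transcripts in GENCODE M21 also occur in Fcgr2b transcripts, so a part of their reads can be split uncertainly.

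The sequences before the start sites of these genes are given as a description. Those of a Pilr pair are added because an activating and an inhibitory gene share theirs. Each is the 250 bases before the RefSeq start on build GRCm38.p6, 5′ to 3′ on the gene's strand; the tables themselves hold no positions. Capitals mark the core motif of PU.1, a transcription factor of myeloid cells (GAGGAA, or TTCCTC when read on the other strand), and a C/EBP motif (TTGCNNAA, or TTNNGCAA on the other strand).
Fcgr1, chr3:96293970-96294219, minus strand: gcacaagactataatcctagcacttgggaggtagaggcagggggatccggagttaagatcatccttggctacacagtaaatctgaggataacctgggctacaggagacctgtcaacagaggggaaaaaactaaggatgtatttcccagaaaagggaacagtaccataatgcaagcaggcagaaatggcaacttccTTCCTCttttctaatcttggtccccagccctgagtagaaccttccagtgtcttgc
Fcgr3, chr1:171059404-171059653, minus strand: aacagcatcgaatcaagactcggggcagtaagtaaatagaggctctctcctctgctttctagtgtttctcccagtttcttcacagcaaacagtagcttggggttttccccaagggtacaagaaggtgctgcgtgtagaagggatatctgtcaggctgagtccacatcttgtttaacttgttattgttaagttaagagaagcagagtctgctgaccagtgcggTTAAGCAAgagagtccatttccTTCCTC
Fcgr4, chr1:171018676-171018925, plus strand: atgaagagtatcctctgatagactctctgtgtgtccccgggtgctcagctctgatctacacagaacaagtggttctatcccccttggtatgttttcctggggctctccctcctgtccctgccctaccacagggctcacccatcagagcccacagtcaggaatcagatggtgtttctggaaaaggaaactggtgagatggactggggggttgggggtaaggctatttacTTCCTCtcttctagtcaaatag
Fcgr2b, chr1:170976072-170976321, minus strand: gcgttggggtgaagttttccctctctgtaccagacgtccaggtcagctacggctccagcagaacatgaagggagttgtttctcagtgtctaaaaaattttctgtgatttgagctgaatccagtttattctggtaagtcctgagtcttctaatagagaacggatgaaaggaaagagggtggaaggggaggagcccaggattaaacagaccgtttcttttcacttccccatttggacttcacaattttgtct
Pilrb1, chr5:137858050-137858299, minus strand: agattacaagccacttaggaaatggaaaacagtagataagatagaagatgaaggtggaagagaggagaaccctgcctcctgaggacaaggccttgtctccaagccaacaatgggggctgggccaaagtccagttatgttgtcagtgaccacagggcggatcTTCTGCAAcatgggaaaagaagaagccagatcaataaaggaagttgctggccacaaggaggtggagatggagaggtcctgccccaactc
Pilra, chr5:137836279-137836528, minus strand: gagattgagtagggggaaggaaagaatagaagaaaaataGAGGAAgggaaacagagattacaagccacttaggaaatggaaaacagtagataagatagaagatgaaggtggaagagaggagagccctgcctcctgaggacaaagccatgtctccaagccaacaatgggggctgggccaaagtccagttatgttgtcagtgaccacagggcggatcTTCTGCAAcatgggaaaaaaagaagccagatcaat

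The PU.1 core began 55 bases before the start in Fcgr1, 6 bases before it in Fcgr3 and 22 bases before it in Fcgr4, and was not in the Fcgr2b window. The C/EBP motif 89 bases before the Pilrb1 start and that 35 bases before the Pilra start fall on the same base of the shared stretch. Fcgr3 has 2 RefSeq starts with overlapping windows, and the first is shown. Of the 35 receptor genes with a promoter in the RefSeq table, 21 held GAGGAA on either strand. Counted by promoter it was 22 of 37, against 23.3% of 32851 promoters in all. GAGGAA was found in 12 of the 16 genes called higher that had a promoter, and in 9 of the other 19. Most of these 19 were below the filter and not tested, and only Fcer1g, Cd300a and Lilrb3 were tested and not called. The longer form GAGGAAGT, which contains the core, was in 6 of the 35 genes, and Fcgr4 was the only one of these 6 called higher. Of the rest, Fcrl1, Pira2, Pira3 and Fcrlb were below the filter and not tested, and Lilrb3 was tested and not called. By promoter the longer form was in 6 of 37, against 2.44% of all promoters. TTGCNNAA was in 6 of the 35 genes and 7 of the 37 promoters, against 9.56% of all promoters. Genes of 1 family share promoter sequence, so these counts are not independent: the Pilrb1 and Pilrb2 windows were the same at 98.4% of 250 bases, and the Pilrb1 window matched the Pilra window at 98.0% of 196 bases with a shift of 54. A match of letters is a description and not a measured binding site, and the part of these motifs in the changes was not tested.

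TREM and TREM-like receptors, of which Trem1, Trem2 and Trem3 signal through DAP12, differed within 1 locus. Trem3, an activating receptor of mouse myeloid cells (ENSMUSG00000041754), was at 99.99, 100.3 and 66.0 FPKM in Dot1l-deleted libraries, against 13.9, 10.9 and 12.2 FPKM in controls. It had the largest log2 fold change of the set, 2.73 (SE 0.193, limma adjusted p = 5.008e-06), which ranked 61 among the 11924 tested genes from the highest down. Trem1, the receptor that amplifies neutrophil and monocyte responses, was at 10.1, 10.3 and 6.74 FPKM in Dot1l-deleted libraries, against 3.40, 3.30 and 2.95 FPKM in controls (log2 fold change 1.23, SE 0.171, limma adjusted p = 0.000508). Treml2, which encodes a receptor of B cells and myeloid cells, was at 36.7, 37.4 and 27.0 FPKM in Dot1l-deleted libraries, against 36.7, 35.8 and 35.7 FPKM in controls, and was not called (log2 fold change -0.11, SE 0.165, limma adjusted p = 0.673; scaled value 0.07, adjusted p = 0.102). Treml1, a platelet and megakaryocyte receptor with an inhibitory motif, was below the filter at 0.378, 0.292 and 0.282 FPKM in Dot1l-deleted libraries, against 0.832, 0.939 and 0.783 FPKM in controls. With no filter limma called it lower (log2 fold change -0.49, adjusted p = 0.00481), and it was the only 1 of the 41 genes called lower in that fit, where 6.68% of 20568 genes were. Also below the filter, Trem2 was at 1.76, 2.03 and 0.716 FPKM in Dot1l-deleted libraries, against 0.0834, 0.440 and 0 FPKM in controls, and Treml4 at 0.744, 0.933 and 0.669 FPKM, against 0.0835, 0.0979 and 0.133 FPKM. By RefSeq on GRCm38.p6 the order on chromosome 17 is Trem1, Trem3, Treml4, Treml2, Trem2 and Treml1, so genes called higher and lower with no filter and an uncalled one lie among each other. Beside the Treml1 values, the summed FPKM of 5 platelet and megakaryocyte markers was 66.9 to 87.8 in Dot1l-deleted libraries and 117 to 124 in controls. Most of the control sum was Itga2b, at means of 18.7 FPKM in Dot1l-deleted and 82.8 FPKM in control libraries. Without overlap 3 of the 5 were lower (Itga2b, Gp1ba and Gp9) and 2 higher. The higher ones were Pf4 (means of 53.4 FPKM in Dot1l-deleted and 30.8 FPKM in control libraries) and Ppbp (2.56 and 0.184 FPKM). Of all tested genes 34.1% were lower and 10.7% higher without overlap. The part of platelet and megakaryocyte cells in the Treml1 result was not tested.

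Siglecs, lectins that bind sialic acid and mostly inhibit, included several of the largest relative changes. Siglecg, an inhibitory siglec known best from B cells (ENSMUSG00000030468), was at 4.15, 5.23 and 3.64 FPKM in Dot1l-deleted libraries, against 0.305, 0.451 and 0.0612 FPKM in controls. That was a 15.9-fold higher mean and a log2 fold change of 2.07 (SE 0.201, limma adjusted p = 4.205e-05). Siglece, an inhibitory receptor of neutrophils and macrophages, was at 2.84, 2.44 and 2.29 FPKM in Dot1l-deleted libraries, against 0.139, 0.186 and 0.428 FPKM in controls (log2 fold change 1.5, SE 0.196, limma adjusted p = 0.000338). The row deposited as Siglec5 now carries the symbol Siglecf, the gene of an inhibitory siglec of mouse eosinophils. It was at 10.9, 12.9 and 8.90 FPKM in Dot1l-deleted libraries, against 2.63, 1.87 and 1.93 FPKM in controls (log2 fold change 1.91, SE 0.169, limma adjusted p = 2.171e-05). Cd33, whose mouse protein differs from the human one in its tail and was listed with no set role, was at 32.5, 32.2 and 28.4 FPKM in Dot1l-deleted libraries, against 11.1, 11.3 and 9.36 FPKM in controls (log2 fold change 1.47, SE 0.141, limma adjusted p = 3.899e-05). In all 4 genes every Dot1l-deleted library lay above every control. Cd22, the B cell siglec, and Siglech, a receptor of plasmacytoid dendritic cells, were listed at 0 in all 6 libraries, as were Sirpb1a and Fcrl6. Siglec1, the macrophage sialoadhesin gene, stayed at or below 0.0445 FPKM in every library.

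The Pilr genes form a pair of activating receptors, Pilrb1 and Pilrb2, with the inhibitory Pilra. All 3 rose, each with no overlap between groups. Pilra was at 4.14, 5.83 and 3.08 FPKM in Dot1l-deleted libraries, against 0.407, 0.400 and 0.140 FPKM in controls, a 13.8-fold higher mean (log2 fold change 2.0, SE 0.222, limma adjusted p = 0.000107). Pilrb2 was at 6.05, 8.57 and 5.77 FPKM in Dot1l-deleted libraries, against 0.922, 0.504 and 0.937 FPKM in controls (log2 fold change 2.12, SE 0.191, limma adjusted p = 2.495e-05). Pilrb1 was at 4.73, 5.69 and 4.10 FPKM in Dot1l-deleted libraries, against 0.728, 1.03 and 0.481 FPKM in controls (log2 fold change 1.74, SE 0.188, limma adjusted p = 8.707e-05). Near-identical copies make the split between these rows uncertain, since 26.04% of the 50-base stretches of Pilrb1 also occur in Pilrb2 and 7.57% of those of Pilra occur in other genes.

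The Cd300 genes, whose products bind membrane lipids, changed unevenly along chromosome 11. Cd300lf, an inhibitory receptor, was at 3.53, 3.58 and 4.19 FPKM in Dot1l-deleted libraries, against 0.864, 0.616 and 0.733 FPKM in controls (log2 fold change 1.46, SE 0.168, limma adjusted p = 0.000141). Its activating counterpart Cd300lb was at 2.33, 2.43 and 1.82 FPKM in Dot1l-deleted libraries, against 0.289, 0.339 and 0.260 FPKM in controls (log2 fold change 1.3, SE 0.192, limma adjusted p = 0.000785). Cd300d, now Cd300c2, was at 3.94, 2.84 and 3.41 FPKM in Dot1l-deleted libraries, against 0.314, 0.428 and 0.367 FPKM in controls (log2 fold change 1.68, SE 0.183, limma adjusted p = 9.422e-05). Cd300a, an inhibitory receptor for phosphatidylserine and the highest of the family in controls, was at 12.5, 13.6 and 10.3 FPKM in Dot1l-deleted libraries, against 9.97, 9.56 and 9.16 FPKM in controls. The groups did not overlap, but it was not called (log2 fold change 0.31, SE 0.141, limma adjusted p = 0.161); it passed with scaling (0.48, adjusted p = 0.00106) and without the third Dot1l-deleted library (0.41, adjusted p = 0.00729). Cd300c was below the filter at 0.661, 1.25 and 1.13 FPKM in Dot1l-deleted libraries, against 0.264, 0.309 and 0.168 FPKM in controls, and Cd300e overlapped between groups.

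Among the remaining inhibitory receptors, Sirpa rose and the Lilr genes did not pass. Sirpa, whose product restrains phagocytosis on binding CD47 (ENSMUSG00000037902), was at 36.8, 36.6 and 26.3 FPKM in Dot1l-deleted libraries, against 16.5, 14.7 and 14.9 FPKM in controls (log2 fold change 1.05, SE 0.166, limma adjusted p = 0.00119). Cd47 itself, the ligand gene, was at 289 ± 47.6 FPKM in Dot1l-deleted and 327 ± 4.30 FPKM in control libraries (SD, n = 3 each) and was not called (limma adjusted p = 0.481). The row deposited as Lilrb4, the symbol of an inhibitory receptor, has an identifier that now carries the symbol Gm49339. It was the highest inhibitory member in controls, just above Fcgr2b, and overlapped between groups, at 46.0, 55.3 and 44.2 FPKM in Dot1l-deleted libraries, against 58.8, 53.0 and 54.3 FPKM in controls (log2 fold change -0.19, SE 0.157, limma adjusted p = 0.419; scaled value -0.011). Of its 50-base stretches 96.6% also occur in other GENCODE M21 genes, mostly Lilrb4a, so its level is uncertain. Lilrb3, which is now Pirb and encodes an inhibitory receptor for MHC class I, was at 1.77, 2.06 and 1.5 FPKM in Dot1l-deleted libraries, against 0.913, 0.789 and 0.915 FPKM in controls. It narrowly missed the threshold (log2 fold change 0.56, SE 0.183, limma adjusted p = 0.0555), and passed with scaling (0.66, adjusted p = 0.00289) and without the third Dot1l-deleted library (0.64, adjusted p = 0.00873). The rows deposited as Pira2 and Pira3, symbols of its activating counterparts, have identifiers that are now Gm14548 and Lilra6, and lay between 0.0491 and 0.215 FPKM in all libraries and overlapped between groups; they share 71.2% and 31.3% of their 50-base stretches with other genes.

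Fcrls, a scavenger-like member of the Fc receptor-like family known from mouse microglia, had the highest ratio of means in the set. It was at 4.19, 4.52 and 3.34 FPKM in Dot1l-deleted libraries, against 0.0157, 0.147 and 0.120 FPKM in controls, 42.7-fold in means (log2 fold change 2.19, SE 0.187, limma adjusted p = 1.658e-05). The other Fc receptor-like genes, known mainly from B cells, were low: Fcrl1 was at 0.15 to 0.279 FPKM in Dot1l-deleted libraries and 0.0440 to 0.131 FPKM in controls, and Fcrla, Fcrlb and Fcrl5 had means below 0.11 FPKM in both groups and overlapped.

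Of the 18 genes below the filter, 8 had a mean of at least 0.1 FPKM, 6 a lower mean above 0, and 4 were listed at 0 throughout. Over all 41 genes, 25 had every Dot1l-deleted value above every control value, 2 had every one below and 14 overlapped or were listed at 0. Among 20568 genes above 0 in any library, 12.2% lay wholly above and 23.2% wholly below, and among the 11924 tested genes 10.7% and 34.1% did. Fitted with no filter, 37 of the 41 genes gave a value; 22 rose, 1 fell and 14 did not pass, where 6.52% of all genes in that fit rose.

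**Figure D2:**
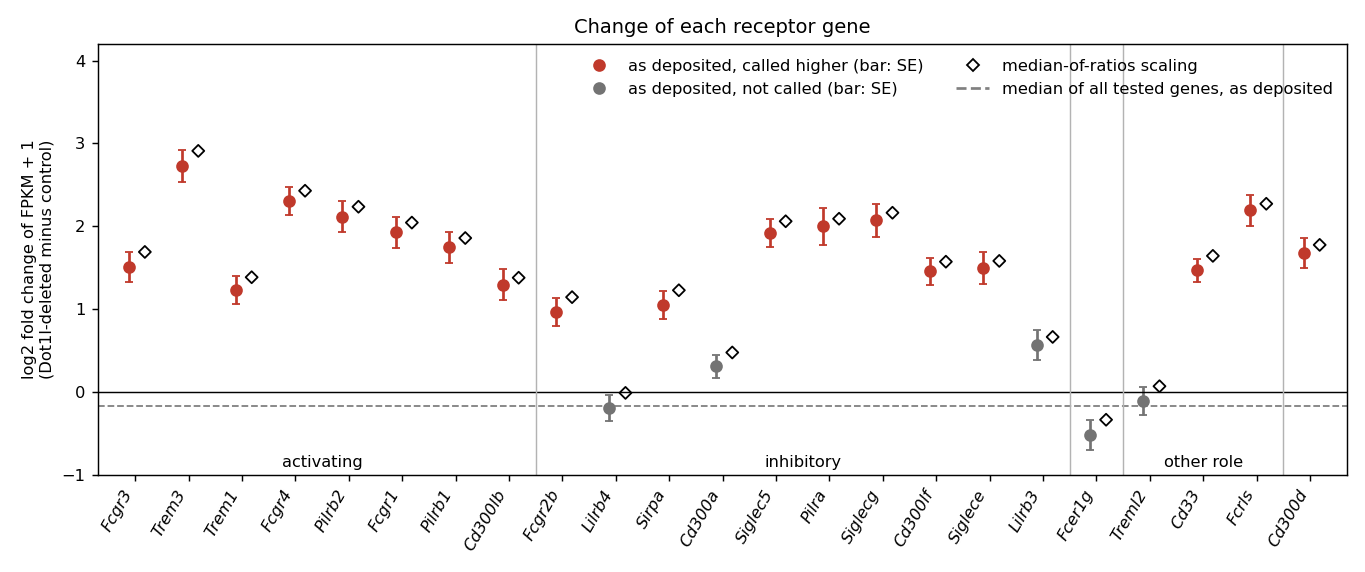
Log2 fold change of FPKM + 1 (Dot1l-deleted minus control, 3 libraries each) of the 23 tested receptor genes by role, as deposited with its SE (filled) and with median-of-ratios scaling (open diamonds); the dashed line is the median of all tested genes, -0.16. All 8 activating genes and 7 of 10 inhibitory genes were called higher, against 7.43% of all tested genes. In each role 5 genes passed the filter only through the Dot1l-deleted group, so their passing already required a difference. Of those past it in both groups, 3 of 3 activating and 3 of 5 inhibitory genes were called higher.

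By role, all 8 tested activating genes rose and so did 7 of 10 tested inhibitory genes, with 3 not passing. Of all tested genes 7.43% were called higher. In each role 5 genes passed the filter only through the Dot1l-deleted group. When values were scaled by median of ratios, and likewise when the third Dot1l-deleted library was left out, 9 of the 10 inhibitory genes were called higher. Over all 11924 tested genes 23.0% were called higher with that scaling, and 2069 genes were without that library. The median log2 fold change was 1.83 over the activating and 1.25 over the inhibitory genes tested, against -0.16 over all tested genes. With no filter the medians lay closer together, at 1.15 over 16 activating and 1.05 over 11 inhibitory genes, against -0.036 over all genes in that fit. There 11 of the 16 and 8 of the 11 were called higher, and 1 inhibitory gene lower. Of all genes in that fit 6.52% were called higher and 6.68% lower. As FPKM is per length, levels can be added. Summed over all listed members, activating receptors had 421, 458 and 312 FPKM in Dot1l-deleted libraries, against 122, 109 and 106 FPKM in controls. Inhibitory receptors had 233, 258 and 192 FPKM in Dot1l-deleted libraries, against 146, 134 and 137 FPKM in controls. The ratio of the activating to the inhibitory sum, which does not depend on how a library is scaled, was 1.81, 1.78 and 1.63 in Dot1l-deleted libraries, against 0.834, 0.814 and 0.778 in controls. The groups did not overlap, and no test was run on this sum. Fcgr3 alone made up 67.4% of the activating sum in Dot1l-deleted and 82.3% in control libraries, and Lilrb4 21.4% and 39.8% of the inhibitory sum. With Fcgr3 and Fcgr2b, the highest of each role over the 6 libraries, left out the ratio was 1.06 ± 0.110 in Dot1l-deleted and 0.232 ± 0.00970 in control libraries (SD, n = 3 each), and with Lilrb4 left out it was 2.21 ± 0.0836 in Dot1l-deleted and 1.34 ± 0.0530 in control libraries. Without Fcgr3 the activating sum was mostly Trem3. That sum had means of 129.7 FPKM in Dot1l-deleted and 19.9 FPKM in control libraries, and Trem3 88.7 and 12.3 FPKM.

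Within receptor pairs no shift of ratio passed a test. Of 16 listed pairs, 6 had both genes past the filter and were compared by an exact two-sided permutation test, for which 3 against 3 libraries allow no p below 0.1. In 5 of the 6 pairs, all but Fcgr3 with Fcgr2b, at least 1 gene had passed the filter only through the Dot1l-deleted group. The Fcgr3 to Fcgr2b ratio was 2.54, 2.59 and 2.45 in Dot1l-deleted libraries, against 1.82, 1.76 and 1.63 in controls (exact p = 0.1, adjusted over 6 pairs 0.15). The Fcgr4 to Fcgr2b ratio was 0.0749 ± 0.00450 in Dot1l-deleted and 0.0148 ± 0.0029 in control libraries, and the Fcgr1 to Fcgr2b ratio 0.0580 ± 0.0054 in Dot1l-deleted and 0.0162 ± 0.0019 in control libraries (SD, n = 3 each; exact p = 0.1, adjusted 0.15 for each). The Pilrb1 to Pilra ratio, which rests on control values of 0.140 to 1.03 FPKM, was lower, at 1.14, 0.975 and 1.33 in Dot1l-deleted libraries, against 1.79, 2.59 and 3.43 in controls (exact p = 0.1, adjusted 0.15). The Pilrb2 to Pilra and Cd300lb to Cd300lf ratios overlapped between groups (exact p = 0.4 and 0.2, adjusted 0.4 and 0.24). With 1 FPKM added to both genes of a pair, the differences of both these overlapping pairs changed sign, and Pilrb1 to Pilra gave exact p = 0.2.

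**Figure D3:**
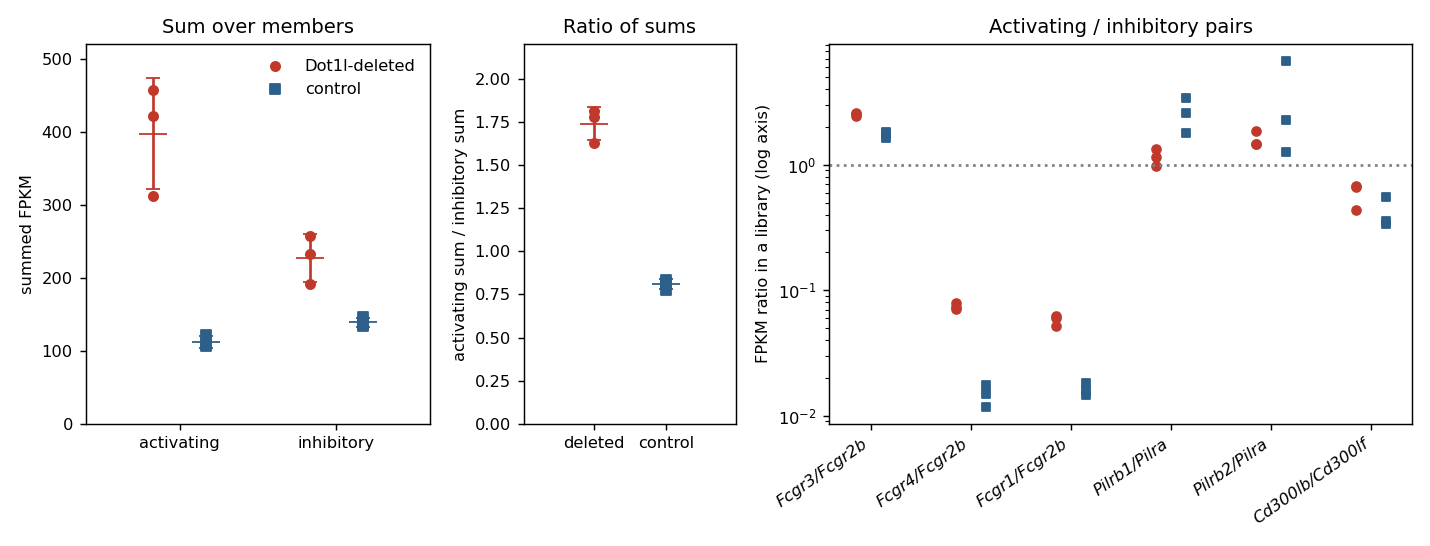
Left, summed FPKM of the 18 activating and 12 inhibitory members; middle, the ratio of these sums; right, the FPKM ratio of 6 activating to inhibitory pairs (log axis). Points are the 3 Dot1l-deleted (circles) and 3 control libraries (squares), and bars in the left and middle panels are the mean ± SD; the ratio of sums was 1.63 to 1.81 in Dot1l-deleted libraries and 0.778 to 0.834 in controls.

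Of the adaptors of the activating receptors, Tyrobp and Hcst rose and Fcer1g did not pass. Fcer1g, the gamma chain used by Fcgr1, Fcgr3 and Fcgr4 (ENSMUSG00000058715), was the most abundant member in controls and was lower in every Dot1l-deleted library, at 219, 239 and 172 FPKM in Dot1l-deleted libraries, against 298, 305 and 294 FPKM in controls. It did not pass with values as deposited (log2 fold change -0.52, SE 0.178, limma adjusted p = 0.0671). It was called lower once the third Dot1l-deleted library was left out (-0.38, adjusted p = 0.00619), and also when scaled (-0.34, adjusted p = 0.00235). Tyrobp, the DAP12 gene used by Trem and Pilrb receptors, was at 182, 213 and 147 FPKM in Dot1l-deleted libraries, against 31.0, 28.8 and 21.0 FPKM in controls (log2 fold change 2.70, SE 0.203, limma adjusted p = 7.26e-06). The Tyrobp to Fcer1g ratio, a comparison made after the values were seen, was 0.857 ± 0.0317 in Dot1l-deleted and 0.0900 ± 0.0167 in control libraries (SD, n = 3 each). Hcst, the DAP10 gene, rose by 0.68 on the log2 scale (SE 0.163, limma adjusted p = 0.0135) and lost the call without control replicate 2 or 3 and without Dot1l-deleted replicate 1 or 2 (adjusted p = 0.0602 to 0.0900). Fcer1g also serves the IgE receptor of mast cells, whose beta chain gene Ms4a2 was at 41.5 ± 4.37 FPKM in Dot1l-deleted and 155 ± 10.2 FPKM in control libraries (SD, n = 3 each). The 6 measured mast cell markers summed to 1526 to 2215 FPKM in Dot1l-deleted libraries and 2472 to 2718 FPKM in controls, with 4 lower and 1 higher without overlap, beside the 34.1% and 10.7% of all tested genes. Their part in the Fcer1g values was not tested.

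Most listed genes of receptor signalling did not pass. The list held kinases, phosphatases and downstream effectors, and also the adaptors Tyrobp and Hcst, other Fc receptors, and related receptors and ligands. Of 54 listed genes of receptor signalling, 42 were tested; 10 rose, 7 fell and 25 did not pass, with a median log2 fold change of 0.03; over all tested genes 7.43% rose and 12.2% fell. Scaled by median of ratios, 19 rose and 8 fell (23.0% and 22.3% over all tested genes). With the third Dot1l-deleted library left out 18 rose and 7 fell. Over all 11924 tested genes 2069 rose and 2504 fell in that fit. Among the Src family kinase genes, Fgr rose and Fyn fell. Fgr was at 2.51, 2.27 and 1.52 FPKM in Dot1l-deleted libraries, against 0.337, 0.280 and 0.240 FPKM in controls (log2 fold change 1.26, limma adjusted p = 0.00158). Fyn was at 5.74, 5.04 and 4.05 FPKM in Dot1l-deleted libraries, against 22.3, 25.5 and 24.3 FPKM in controls (log2 fold change -2.08, limma adjusted p = 4.995e-06). Lyn, a Src family kinase of myeloid cells, and Syk, which docks on the activation motif, were not called (log2 fold changes -0.068 and 0.14, limma adjusted p = 0.792 and 0.549); with scaling both passed, at 0.11 and 0.32 (adjusted p = 0.0402 and 0.00211), while of the pair only Syk did when the third Dot1l-deleted library was left out (adjusted p = 0.229 for Lyn and 0.0106 for Syk).

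Of 6 phosphatase genes only Ptprj was called, and it fell (log2 fold change -1.0, limma adjusted p = 0.00154). Ptpn6, encoding SHP-1, was at 85.5 ± 15.8 FPKM in Dot1l-deleted and 70.4 ± 2.34 FPKM in control libraries (log2 fold change 0.26, limma adjusted p = 0.340), and passed with scaling (0.44, adjusted p = 0.000198) and without the third Dot1l-deleted library (0.42, adjusted p = 0.00345). Inpp5d, encoding SHIP-1, was at 38.5 ± 5.79 FPKM in Dot1l-deleted and 43.3 ± 1.55 FPKM in control libraries and was not called (limma adjusted p = 0.472). Of 18 downstream effectors 4 rose and 3 fell: Lcp2, the SLP-76 adaptor gene, rose (log2 fold change 1.35, limma adjusted p = 0.000233), as did Pik3ap1 (1.02) and Dok3 (0.72), while Lat2, the scaffold gene NTAL, fell (-1.89, limma adjusted p = 2.012e-05). Dok3 lost the call without control replicate 3 (adjusted p = 0.0618). Among 6 related receptor and ligand genes, the inhibitory lectin gene Clec12a rose 9.71-fold and the collagen receptor gene Lair1 5.59-fold, and Cd200r4 fell (log2 fold change -1.13, limma adjusted p = 0.000303). Of the other Fc receptor genes, Ms4a2 fell (log2 fold change -1.88, limma adjusted p = 1.602e-05) and the neonatal Fc receptor gene Fcgrt was not called (0.40, adjusted p = 0.190; 0.0219 with scaling).

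**Figure D4:**
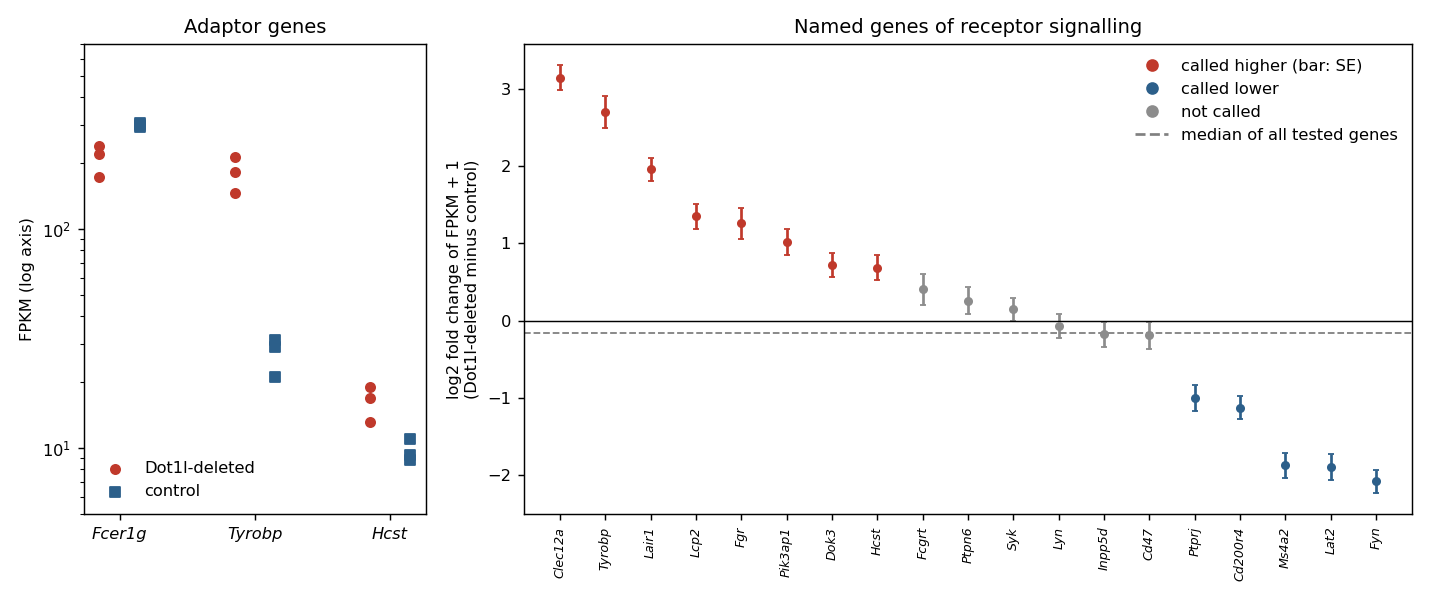
Left, FPKM (log axis) of the adaptor genes Fcer1g, Tyrobp and Hcst in the 3 Dot1l-deleted (circles) and 3 control libraries (squares). Right, log2 fold change of FPKM + 1 (Dot1l-deleted minus control) with SE of the tested signalling genes named in the text, in falling order; Clec12a and Tyrobp lie highest and Fyn lowest, and the dashed line is the median of all tested genes, -0.16.

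Markers of other mature cells were summed in each library. Beside the counts without overlap given here, 10.7% of all tested genes were higher and 34.1% lower without overlap. Among 20568 genes above 0 in any library it was 12.2% and 23.2%. Of 9 measured neutrophil markers, 8 were higher with no overlap between groups; their summed FPKM was 20583 to 24400 in Dot1l-deleted libraries and 987 to 1219 in controls, mostly S100a8 and S100a9, while the defining gene Ly6g was at 0.813 to 2.11 FPKM in Dot1l-deleted libraries and listed at 0 in controls. Of 11 monocyte and macrophage markers 4 were higher without overlap and 7 overlapped, with sums of 60.2 to 82.3 FPKM in Dot1l-deleted libraries and 36.4 to 41.7 FPKM in controls; Csf1r had means of 2.61 FPKM in Dot1l-deleted and 0.507 FPKM in control libraries, and C1qa was listed at 0 in all libraries. The part of these cells in the receptor values was not tested. B cell markers summed to 4.10 to 5.60 FPKM in Dot1l-deleted libraries and 1.19 to 1.67 FPKM in controls, nearly all Cd79b. T and NK cell markers summed to 0.256 to 0.392 FPKM in Dot1l-deleted libraries and 0.0992 to 0.164 FPKM in controls, with Ncr1 listed at 0. Stromal and endothelial markers summed to 1.03 to 1.51 FPKM in Dot1l-deleted libraries and 1.16 to 1.55 FPKM in controls. Plasmacytoid dendritic cell markers summed to 66.1 to 110.5 FPKM in Dot1l-deleted libraries and 83.8 to 97.3 FPKM in controls, mostly Bst2; 3 of 4 measured markers were lower without overlap and 0 higher, with the defining gene Ccr9 at means of 0.163 FPKM in Dot1l-deleted and 0.465 FPKM in control libraries.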

How the data were processed

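The authors deposited 1 table of FPKM values per library, with 1 value per Ensembl gene and no read counts, so the depth behind a value is unknown. Build mm9 and, with no role or order, Cuffdiff, SAMtools, GSNAP and CASAVA 1.8.2 are named per the submitters' processing notes. The sources used here do not say whether strand was used in counting. Rows at 999999999, read as failed estimates, were left out (378 of 31626). An exact 0 can also be a failed estimate, so such genes are described as listed at 0.

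The test was limma 3.58.1 in R 4.3.3 on log2(FPKM + 1), with its variance trended on mean level, two-sided, with Benjamini-Hochberg adjustment over all 11924 genes with a mean of at least 1 FPKM, checked on simulated data. Further values were computed with Python 3.11.15 and pandas 2.3.3. The receptor genes, roles, pairs and lists were chosen with earlier results of these data known. All receptor genes past the filter are named, along with up to 4 genes per signalling list with the smallest adjusted p and Tyrobp, Syk, Lyn, Ptpn6 and Inpp5d; receptor genes below the filter with a mean of at least 0.1 FPKM are named too. Some results on genes outside the receptor set are not reported here. Of the 41 receptor genes, 35 had a promoter in the RefSeq table, matched by the current symbol of their identifier or by symbol. Alternatives covered the pseudocount (0.1 and 5), the filter, scaling, the variance trend, a block for replicate number and each library left out. Same-numbered libraries did not deviate together (correlations of -0.0377 to 0.0128).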

Additional observations from a re-analysis of the deposited data

How the results depend on the processing

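All 18 receptor genes called higher kept that call under every alternative that tested them. A filter at a mean of 5 FPKM removed 11 of them by construction and left 7, with 3 activating and 3 inhibitory genes. The number of receptor genes called lower was 0, and 1 with no filter (Treml1, so also 1 inhibitory gene) and with quantile normalization, median-of-ratios scaling, that scaling with the replicate block and that scaling once the third Dot1l-deleted library was left out (Fcer1g). Among fits with single libraries left out it was 0 to 1, receptor genes called higher were 18 to 20 and signalling genes called higher 7 to 18. Signalling genes called higher were 18 with quantile normalization, 19 with median-of-ratios scaling, 17 with that scaling and the block and 18 with that scaling once the third Dot1l-deleted library was left out. Over all genes 2345 were called, against 5608 with quantile normalization, 5401 with median-of-ratios scaling, 4461 with that scaling and the block, 4568 with that scaling once the third Dot1l-deleted library was left out, and 1428 to 4573 with single libraries left out (4573 without that library). The replicate block alone gave 2953, with 18 receptor genes higher and 0 lower; the libraries share only a number. The cause of these differences was not tested.

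The log2 difference of the ratio of sums was 1.10, and 2.18 without Fcgr3 and Fcgr2b and 0.72 without Lilrb4, the last chosen after seeing the data, as was counting Cd300d as activating (9 activating genes called higher, against 8). With 1 FPKM added, the log2 difference was 0.12, against -0.75, for Pilrb2 to Pilra and -0.16, against 0.53, for Cd300lb to Cd300lf. Some uncalled genes near 0 changed sign. Treml2 (-0.11; -0.19 to 0.038 with single libraries left out) went to 0.069 with median-of-ratios scaling and with the block added, 0.061 with quantile normalization, 0.067 with scaling once the third Dot1l-deleted library was left out and 0.038 when it was left out of values as deposited. Lyn (-0.068; -0.14 to 0.065 with single libraries left out) went to 0.11, 0.11, 0.10, 0.094 and 0.065 in the same settings, and Inpp5d (-0.18) to 0.0035 with scaling, with and without the block. FPKM gives no counts, so no counting interval can be given, and receptor genes below 1 FPKM are the least certain.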

Other observations

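A gene of the Cd300 family fell outside the symbol rule because its row was deposited as 4732429D16Rik; its identifier now carries the symbol Cd300ld, an activating receptor gene. It was at 10.8, 12.6 and 9.999 FPKM in Dot1l-deleted libraries, against 1.89, 1.69 and 1.19 FPKM in controls, and every Dot1l-deleted library lay above every control. Its log2 fold change was 2.23 (SE 0.161, limma adjusted p = 5.596e-06), and it was named after its values were seen.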
